A study of Mus musculus with 8 samples.

Results

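The intestinal stem cell markers described here are 10 of the 32728 genes in a count table of mouse colon cancer organoids. The set was given by name: Lgr5, Lgr4, Ascl2, Olfm4, Smoc2, Prom1, Tnfrsf19, Cd44, Msi1 and Sox9. All 10 were in the table, and 9 were among the 16719 genes that passed the filter on low counts and were tested. Olfm4 did not pass.

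Organoids are cultures of epithelial cells that organise themselves in a gel. The organoids came from C57BL/6 mice, and in both lines Apc, p53 (Trp53) and Smad4 had been knocked out with CRISPR, so no group had these genes intact. Line CTO19 is labelled male and line apsMC706 female. In the group called noEGF the epidermal growth factor EGF was left out of the medium and RNA was taken at 7 days. In the group called EM, the control medium, the organoids had B27, noggin, Galunisertib and EGF and RNA was taken at 3 days. Each of the 4 groups (CTO19 noEGF, CTO19 EM, apsMC706 noEGF and apsMC706 EM) had 2 libraries. Medium cannot be told apart from days in culture, or line from labelled sex. The labels call the lines biological replicates and do not say whether the 2 libraries of a group were separate cultures. P-values within a line, between the lines and for the difference of their responses thus rest on the spread between libraries of a group, which may be technical. Those between the lines apply to CTO19 and apsMC706 as sequenced and do not measure how much such lines vary. Tests over both lines also take libraries, and not lines, as the unit, except where libraries were summed.

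The intestinal stem cell sits at the base of the crypt, divides steadily and gives rise to the other cells of the lining. Its state is kept up by Wnt signals. R-spondin ligands bind LGR receptors and so shield the Wnt receptors from the ubiquitin ligases Rnf43 and Znrf3, and beta-catenin then acts with TCF and LEF proteins on genes such as Axin2, Lgr5 and Ascl2. Apc is part of the complex that destroys beta-catenin, and colon tumours without it often keep Wnt target genes switched on. Noggin blocks BMP ligands, Galunisertib blocks the TGF-beta receptor, and EGF drives division of crypt cells.

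The stretches of 250 bases upstream of the annotated starts were read for the members with an entry in RefSeq (GRCm38.p6), and 6 members had 8 such windows. Windows are shown for Ascl2, which moved in opposite directions in the lines, for both starts of Tnfrsf19, and for Lgr6, the third LGR receptor, which was found at high level in CTO19 alone. The TCF and LEF letters CTTTGAT were searched on both strands and were present in 3.21% of 32851 windows of this length. On the opposite strand these letters read ATCAAAG. The E box letters CAGCTG, which read alike on both strands, were present in 13.0% of the windows. The motifs do not overlap each other. Sequences run 5′ to 3′ on the strand of the gene, up to the base before the start, with matches in capitals.
Ascl2, chr7:142969265-142969514, minus strand: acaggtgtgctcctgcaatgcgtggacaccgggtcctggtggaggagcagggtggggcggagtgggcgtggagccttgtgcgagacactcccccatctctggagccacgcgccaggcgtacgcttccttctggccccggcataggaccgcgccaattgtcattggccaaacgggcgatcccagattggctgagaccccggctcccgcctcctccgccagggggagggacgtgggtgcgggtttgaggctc
Tnfrsf19, chr14:61037988-61038237, minus strand: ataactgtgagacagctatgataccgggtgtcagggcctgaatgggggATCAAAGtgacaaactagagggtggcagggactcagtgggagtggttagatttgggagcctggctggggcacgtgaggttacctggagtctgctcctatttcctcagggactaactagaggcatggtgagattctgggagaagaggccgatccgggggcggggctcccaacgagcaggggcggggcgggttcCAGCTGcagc
Tnfrsf19, chr14:61046856-61047105, minus strand: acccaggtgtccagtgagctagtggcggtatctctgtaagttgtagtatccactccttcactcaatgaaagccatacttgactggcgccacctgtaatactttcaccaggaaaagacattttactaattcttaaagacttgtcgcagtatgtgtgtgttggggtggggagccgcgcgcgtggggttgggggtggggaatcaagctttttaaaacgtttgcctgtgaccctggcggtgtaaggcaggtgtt
Lgr6, chr1:135105277-135105526, minus strand: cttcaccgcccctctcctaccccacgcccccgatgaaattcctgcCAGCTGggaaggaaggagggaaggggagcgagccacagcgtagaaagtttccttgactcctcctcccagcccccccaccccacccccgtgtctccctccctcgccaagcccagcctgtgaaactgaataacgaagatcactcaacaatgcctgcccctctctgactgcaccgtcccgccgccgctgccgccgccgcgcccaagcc
Of the 8 windows of members, 1 held the TCF and LEF letters and 1 the E box letters, and both were the first Tnfrsf19 window, where they begin 202 and 10 bases upstream of the start. In Lgr6 the E box letters begin 205 bases upstream. A match is a run of letters and not a binding site.

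Library totals ran from 35650262 to 38953838 counts, and 3 counts, the limit that a count of 0 allows, were 0.0745 to 0.0868 CPM, a count scaled to a library of 1000000. The mitochondrial share of the counts was 4.13% to 5.19% in noEGF libraries and 2.94% to 3.68% in EM libraries. Transcripts of the targeted genes were counted in every library, for Apc at 78.0 and 78.2 CPM in CTO19 noEGF, 68.8 and 59.8 in CTO19 EM, 178 and 177 in apsMC706 noEGF, and 191 and 198 in apsMC706 EM. A CRISPR lesion need not lower transcript counts, so these do not check the genotype. Epithelial markers (6 genes) summed to 3769.6 to 3838 CPM in CTO19 noEGF, 3005 to 3149 in CTO19 EM, 3290.4 to 3322 in apsMC706 noEGF and 3117 to 3173 in apsMC706 EM. Intestinal identity markers (8 genes) summed to 135 to 157 CPM in CTO19 noEGF and 79.7 to 90.9 in CTO19 EM, against 836 to 843 in apsMC706 noEGF and 1111 to 1130.2 in apsMC706 EM. Cdx1, a transcription factor of the intestinal lining, was at most 0.108 CPM in any library. The 6 tested genes of that list were called lower in CTO19 in both media, against 34.3% of all genes in noEGF and 33.8% in EM. By these markers the intestinal label was met at a lower level there.

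The 2 CTO19 noEGF libraries differed from each other in the stem cell markers. Replicate 2 over replicate 1 was 1.69 for Lgr5, 1.53 for Smoc2, 1.39 for Ascl2 and 1.24 for Sox9, and likewise 2.32 for Nkd1, 1.57 for Myb and 1.51 for Sp5, which are other genes of the crypt base. Among the 8 members with enough counts 7 were higher in replicate 2, with a median log2 ratio of 0.24, while the median over 16558 genes was 0. In the other groups the members' median was 0.05, -0.02 and -0.02. Results for CTO19 noEGF are given below with and without each of these libraries where that matters. A fit without 1 library leaves 1 in its group, so its test cannot take in how replicates of that group differ. Only effect sizes and lost calls are given for such fits.

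Per kilobase of exon, Cd44 was the most abundant member in CTO19 and Prom1 in apsMC706. Cd44 had a level of 83.1 ± 9.31 CPM per kb in CTO19 noEGF and 126 ± 7.9 in CTO19 EM, and Prom1 151 ± 0.358 in apsMC706 noEGF and 119 ± 2.48 in apsMC706 EM (mean ± SD, n = 2). Sox9 came next in apsMC706 (69.9 ± 1.39 in noEGF, 50.7 ± 2.13 in EM) and stood in place 3 in CTO19 (19.8 ± 2.99 in noEGF, 17.5 ± 0.0165 in EM). Lgr5 held place 8 of 10 in CTO19 noEGF, CTO19 EM and apsMC706 EM and place 4 in apsMC706 noEGF. Exon length here is that of all annotated exons merged (10264 bases for Lgr5, 5884 for Lgr4), and these places depend on it. In CPM, Lgr5 stood above Lgr4 in apsMC706 EM (mean 166 against 122) and below it in CTO19 EM (14.3 against 73.5). Msi1 and Olfm4 were the 2 lowest members in every group, at 0.17 CPM per kb or less. The plot of CPM by library shows the order of the groups for each member.

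**Figure D1:**
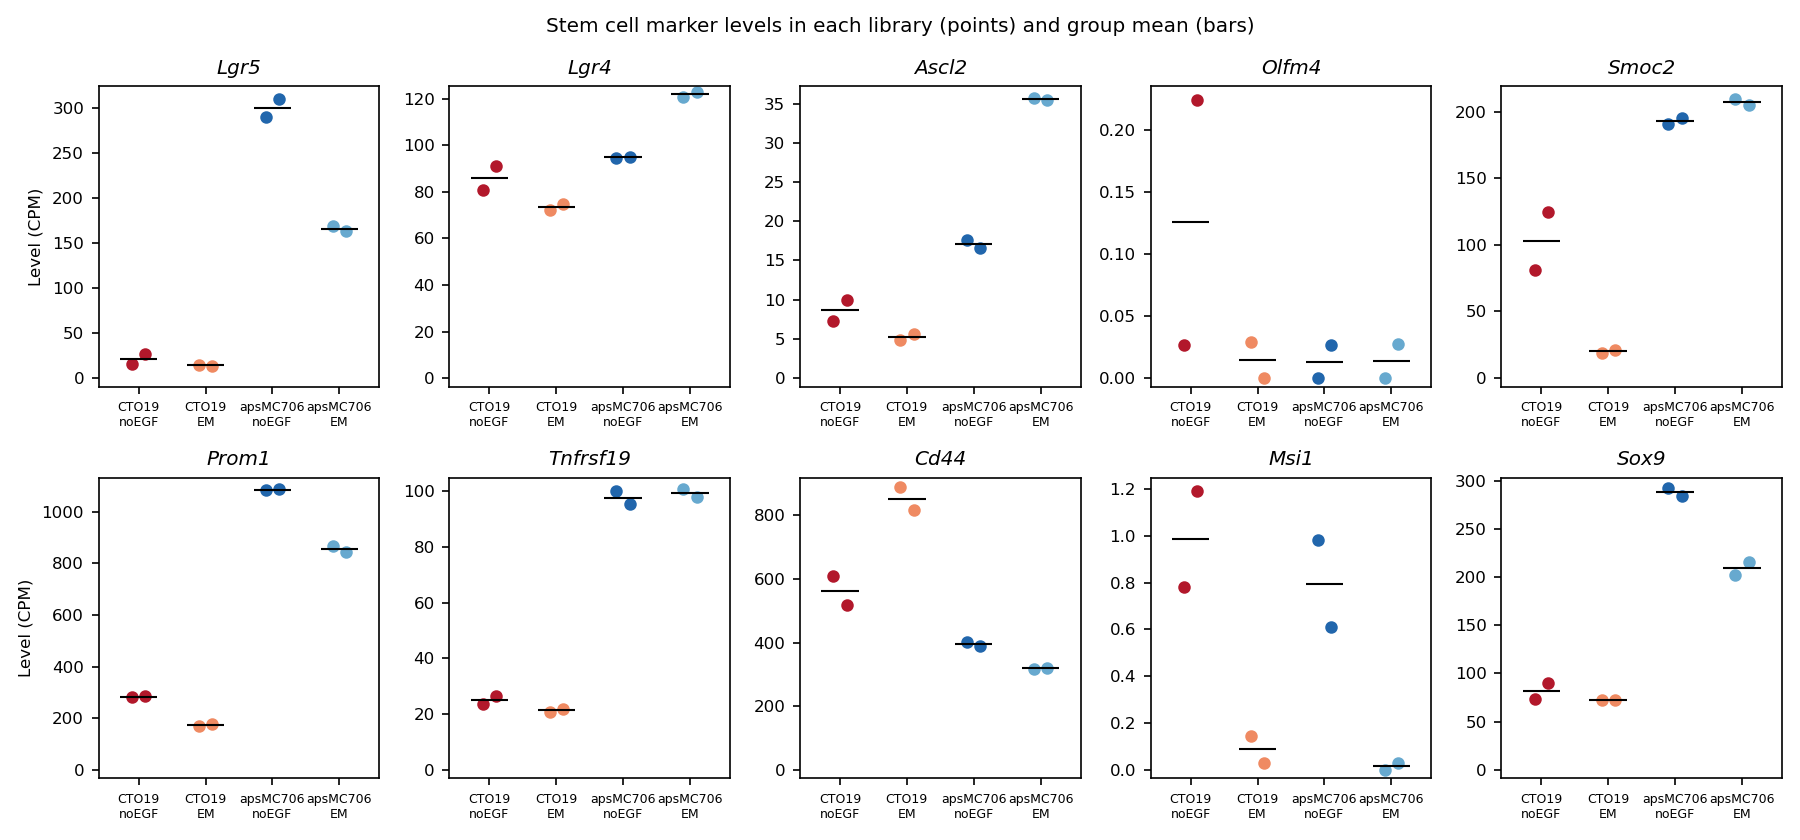
Level of each of the 10 members in CPM (vertical axes, each starting near 0 with its own scale) in the 4 groups; points are libraries and bars the mean of 2 libraries. Lgr5, Lgr4, Ascl2, Smoc2, Prom1, Tnfrsf19 and Sox9 were higher in all 4 apsMC706 libraries than in any CTO19 library, Lgr4 by a narrow margin. Cd44 was lower in apsMC706, and Olfm4 reached 0.224 CPM at most.

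For the members 6 comparisons were made with edgeR's quasi-likelihood test, and a gene is called where its Benjamini-Hochberg adjusted p over all 16719 genes was under 0.05. Without EGF, 4 of the 9 tested members were called higher over both lines and 0 lower, against 25.5% of all genes called higher and 23.3% lower (48.8% in all). Those 4 were Lgr5, Prom1, Sox9 and Msi1, and Msi1 passed the filter on low counts only through the noEGF libraries. In CTO19 alone 6 were called higher and 1 lower, against 34.7% and 33.3% of all genes (68.0% in all). In apsMC706 alone 5 were called higher and 2 lower, against 34.1% and 33.1% (67.2% in all). The counts of higher members in each line, and the medians that follow, include Msi1, whose direction that filter had fixed. The responses of the lines were called different for 6 of the 9, against 56.0% of all genes: 5 were more positive in CTO19 (30.4% of all genes) and 1 more negative (25.6%). The members' median log2 fold change was 0.32 over both lines, 0.57 in CTO19 and 0.31 in apsMC706, against 0.03, 0.02 and 0 over all genes. Both libraries of each line and medium summed, so that the line was the unit, left 0 members and 0 genes called by edgeR over both lines, with 2809 genes at an unadjusted p under 0.05. With 4 sums and 1 residual degree of freedom this fit could call little, so its result is not read as no effect. In bulk RNA fewer cells of a type and less RNA per cell cannot be told apart.

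Between the lines, CTO19 was called lower than apsMC706 for 7 of the 9 members and higher for 1 in noEGF, against 34.3% of all genes lower and 45.7% higher (80.0% in all). In EM the counts were again 7 and 1, against 33.8% lower and 37.5% higher (71.3% in all). The members' median was -0.98 in noEGF and -2.22 in EM, and the median over all genes 0.13 and 0.02. The same 7 members (Lgr5, Lgr4, Ascl2, Smoc2, Prom1, Tnfrsf19 and Sox9) were lower in both media, and the member that was higher in both was Cd44.

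**Figure D2:**
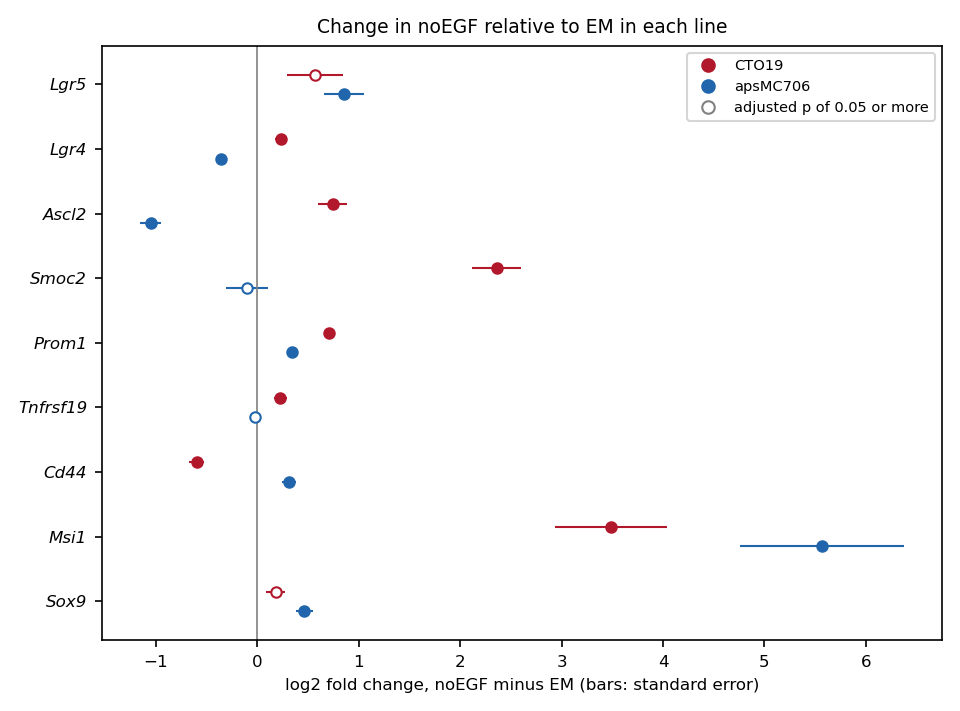
Log2 fold change of each tested member in noEGF relative to EM (horizontal axis; bars are standard errors) in CTO19 and apsMC706; filled points had an adjusted p under 0.05. Ascl2, Lgr4 and Cd44 were called on opposite sides of 0 in the lines, and Smoc2 lies at 2.36 in CTO19 and -0.10 in apsMC706.

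Lgr5, the R-spondin receptor that defines the cycling crypt base stem cell (ENSMUSG00000020140, chromosome 10, 115450311 to 115587780, minus strand, in mm10), was about an order of magnitude lower in CTO19. It had 15.7 and 26.5 CPM in CTO19 noEGF, against 15 and 13.5 in CTO19 EM. In apsMC706 it had 290.1 and 310 CPM in noEGF, against 169.5 and 163 in EM. In both lines the noEGF libraries lay above the EM libraries, by a wide margin in apsMC706 and, in CTO19, through replicate 2. Over both lines Lgr5 rose by 0.71 on the log2 scale (SE 0.159, edgeR adjusted p = 0.00861), with 4 of 4 noEGF libraries above the EM libraries of their line. In apsMC706 it rose by 0.85 (SE 0.201, adjusted p = 0.0177). That call was lost without any 1 of the 4 apsMC706 libraries, while the log2 fold change stayed at 0.79 to 0.89. The test takes its spread from all groups, and the CTO19 noEGF libraries differed by 1.69 times. In CTO19 the log2 fold change of Lgr5 was 0.57 (SE 0.277, adjusted p = 0.135), 0.90 without noEGF replicate 1 and 0.15 without noEGF replicate 2. The difference between the responses was -0.28 (SE 0.343, adjusted p = 0.548). It was -0.79 without CTO19 noEGF replicate 2 and -0.04 without replicate 1. Between lines Lgr5 was lower in CTO19 by -3.82 on the log2 scale in noEGF (SE 0.238, adjusted p = 8.31e-05) and by -3.54 in EM (SE 0.25, adjusted p = 0.000173).

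Lgr4, the receptor of the same family with a broader range along the gut lining (ENSMUSG00000050199, chromosome 2, 109917647 to 110014257, plus strand), varied least between groups among the tested members. It had 81.0 and 91.3 CPM in CTO19 noEGF, against 72.3 and 74.7 in CTO19 EM. It had 94.8 and 94.9 CPM in apsMC706 noEGF, against 121 and 123 in apsMC706 EM. The noEGF libraries were thus above EM in CTO19 and below EM in apsMC706, without overlap. The log2 fold change was 0.23 in CTO19 (SE 0.0521, adjusted p = 0.00127) and -0.36 in apsMC706 (SE 0.0508, adjusted p = 1.62e-05). The difference of 0.59 passed the test (SE 0.0727, adjusted p = 7.01e-06). Over both lines Lgr4 stood at -0.07 (adjusted p = 0.683). In noEGF it was lower in CTO19 by -0.14 (SE 0.0513, adjusted p = 0.0222), a call lost without apsMC706 noEGF replicate 1 or 2. In EM it was lower by -0.73 (SE 0.0516, adjusted p = 6.97e-09).

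Lgr6, the receptor of this family known from stem cells of the skin, is a paralog and not a member. It had 43.8 and 59.9 CPM in CTO19 noEGF and 55.8 and 60.0 in CTO19 EM, against 0.355 and 0.581 in apsMC706 noEGF and 0.106 and 0.109 in apsMC706 EM. CTO19 was higher by 6.78 on the log2 scale in noEGF (SE 0.296, adjusted p = 2.04e-06) and by 9.03 in EM (SE 0.368, adjusted p = 1.95e-06). Its log2 fold change in noEGF relative to EM was -0.16 in CTO19 (unadjusted p = 0.324), with overlapping libraries. In apsMC706 it rested on 35 counts in noEGF and 8 in EM, a ratio of 4.37 with a 95% counting interval of 1.99 to 10.9. Of the summed level of Lgr4, Lgr5 and Lgr6 per kilobase, Lgr5 made up 7.06% and 9.63% in CTO19 noEGF and 6.68% and 5.79% in CTO19 EM, against 63.6% and 65.1% in apsMC706 noEGF and 44.6% and 43.2% in apsMC706 EM. Lgr6 made up 29.5% and 32.6% in CTO19 noEGF and 37.2% and 38.5% in CTO19 EM, against at most 0.183% in apsMC706. These shares depend on the merged exon lengths. In CPM, Lgr5 was above Lgr4 in apsMC706 EM (mean 166 against 122).

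**Figure D3:**
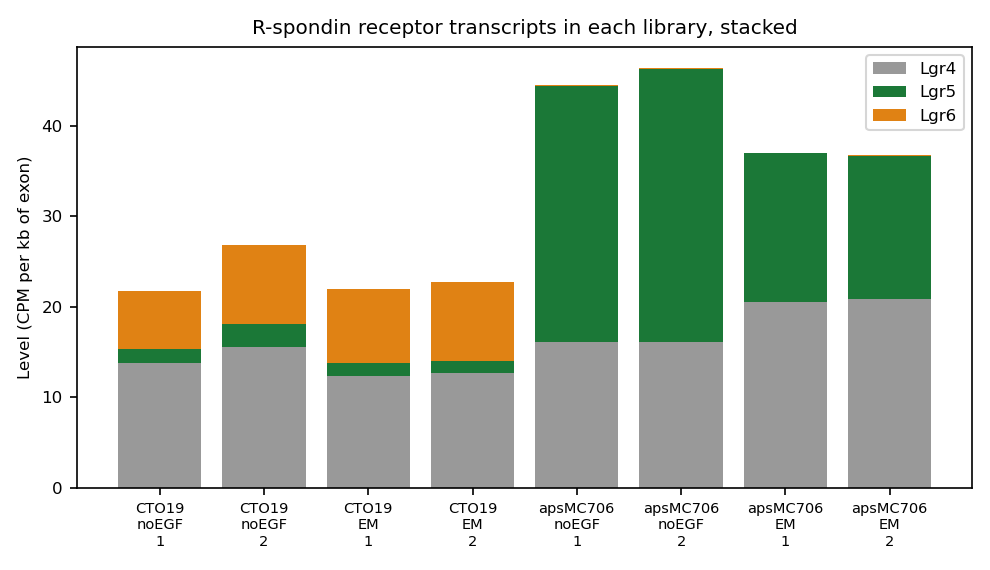
Level of Lgr4, Lgr5 and Lgr6 in CPM per kilobase of exon (vertical axis, stacked bars) in each of the 8 libraries. The sum was 21.7 and 26.8 in CTO19 noEGF, 21.9 and 22.8 in CTO19 EM, 44.4 and 46.4 in apsMC706 noEGF and 37.0 and 36.7 in apsMC706 EM, with Lgr6 visible in CTO19 and Lgr5 the larger part of apsMC706 noEGF.

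Ascl2, a basic helix-loop-helix transcription factor that maintains the crypt base stem cell (ENSMUSG00000009248, chromosome 7, 142966829 to 142969264, minus strand; its upstream window is printed above), moved in opposite directions in the lines. It had 7.24 and 10 CPM in CTO19 noEGF, against 4.81 and 5.56 in CTO19 EM. It had 17.6 and 16.6 CPM in apsMC706 noEGF, against 35.7 and 35.4 in apsMC706 EM. Libraries did not overlap in either line, and every CTO19 library lay below every apsMC706 library. The log2 fold change was 0.74 in CTO19 (SE 0.145, adjusted p = 0.000886), and 0.49 without noEGF replicate 2. In apsMC706 it fell by 1.05 on the log2 scale (SE 0.105, adjusted p = 3.85e-06). The difference between the responses was 1.79 (SE 0.178, adjusted p = 6.67e-06), and over both lines the value was -0.20 (adjusted p = 0.68). The lines were closer in noEGF, with CTO19 lower by -0.98 (SE 0.121, adjusted p = 1.63e-05), than in EM, with CTO19 lower by -2.78 (SE 0.125, adjusted p = 3.05e-09); the test of that change is the difference just given.

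Sox9, a transcription factor of the lower crypt that is needed for Paneth cells (ENSMUSG00000000567, chromosome 11, 112782224 to 112787760, plus strand), had 73.1 and 90.5 CPM in CTO19 noEGF, against 72.2 and 72.3 in CTO19 EM. It had 293 and 285 CPM in apsMC706 noEGF, against 203 and 216 in apsMC706 EM. Only the second CTO19 noEGF library stood clear of its EM libraries. Sox9 rose in apsMC706 by 0.46 on the log2 scale (SE 0.0849, adjusted p = 0.00162). In CTO19 it was 0.18 (SE 0.091, adjusted p = 0.117), and it was called with no filter on low counts (0.16, adjusted p = 0.00256) and by the DESeq2 Wald test (0.19, adjusted p = 0.035). It was 0.33 without noEGF replicate 1 and 0.03 without replicate 2. Over both lines Sox9 was 0.32 (SE 0.0917, adjusted p = 0.0231). That call was lost without CTO19 noEGF replicate 2, apsMC706 noEGF replicate 1 or 2, or apsMC706 EM replicate 1 or 2. The difference between the responses was -0.28 (SE 0.124, adjusted p = 0.0897). It was called with upper-quartile factors (-0.36, adjusted p = 0.0384), no filter (-0.37, 2.81e-07), a stricter filter (-0.37, 0.0314), the DESeq2 Wald test (-0.33, 0.00723) and a replicate block (-0.29, 0.0423). It was -0.22 without CTO19 noEGF replicate 1 and -0.53 without replicate 2. CTO19 was lower by -1.82 in noEGF (SE 0.089, adjusted p = 2.96e-07) and by -1.54 in EM (SE 0.0898, adjusted p = 1.3e-06).

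Smoc2, a secreted calcium-binding matrix protein of the crypt base (ENSMUSG00000023886, chromosome 17, 14279506 to 14404790, plus strand), had the largest response of the well-counted members, and in 1 line. It had 81.4 and 125 CPM in CTO19 noEGF, against 19.1 and 21.1 in CTO19 EM. It had 191 and 195 CPM in apsMC706 noEGF, against 209.8 and 205 in apsMC706 EM. In CTO19 both noEGF libraries lay far above EM, although they differed from each other by 1.53 times. The log2 fold change in CTO19 was 2.36 (SE 0.243, adjusted p = 0.000867), and it was 2.64 and 2.03 without noEGF replicate 1 and 2. In apsMC706 it was -0.10 (SE 0.204, adjusted p = 0.699); the apsMC706 libraries alone, with their smaller spread, gave the same -0.10 with an adjusted p of 0.00047. The difference between the responses was 2.46 (SE 0.318, adjusted p = 0.00261). Over both lines Smoc2 stood at 1.11 (SE 0.508, adjusted p = 0.11). CTO19 was lower by -3.36 in EM (SE 0.243, adjusted p = 0.000189) and by -0.90 in noEGF (SE 0.209, adjusted p = 0.0135). The call in noEGF was lost in a fit of those 4 libraries alone (adjusted p = 0.0783).

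Olfm4, a secreted glycoprotein used as a stem cell marker above all in the small intestine and in human colon (ENSMUSG00000022026, chromosome 14, 79984081 to 80023139, plus strand), was at the limit of detection. It had 1 and 9 counts in CTO19 noEGF, 1 and 0 in CTO19 EM, 0 and 1 in apsMC706 noEGF, and 0 and 1 in apsMC706 EM. Only CTO19 noEGF replicate 2, at 0.224 CPM, exceeded the 3 counts that a count of 0 allows. The ratio of CTO19 noEGF to EM was 10 counts to 1, or 9.06 after scaling (95% counting interval 1.29 to 393), and rests on that library. Olfm4 shares 153 exonic bases on its own strand with the long noncoding RNA Gm6999. Reads without molecular identifiers are not independent molecules, so this interval and the others cover counting error only.

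Prom1, the membrane glycoprotein CD133 of epithelial protrusions (ENSMUSG00000029086, chromosome 5, 43993620 to 44102032, minus strand), rose in both lines. It had 283 and 284 CPM in CTO19 noEGF, against 170.3 and 177 in CTO19 EM. It had 1084 and 1088 CPM in apsMC706 noEGF, against 869 and 843 in apsMC706 EM. The noEGF libraries lay above EM without overlap in both lines. Prom1 rose over both lines by 0.53 on the log2 scale (SE 0.0897, adjusted p = 0.0028), by 0.71 in CTO19 (SE 0.0379, adjusted p = 7.24e-10) and by 0.34 in apsMC706 (SE 0.0368, adjusted p = 8.73e-07). The response was larger in CTO19, with a difference of 0.36 (SE 0.0528, adjusted p = 3.25e-05). CTO19 was lower than apsMC706 by -1.94 in noEGF (SE 0.0383, adjusted p = 2.22e-15) and by -2.30 in EM (SE 0.0391, adjusted p = 4.56e-16). Prom1 shares 424 exonic bases with the antisense gene Gm16401, and the library kit does not mark strand, so their reads cannot be told apart there.

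Tnfrsf19, a receptor of the tumour necrosis factor family also called Troy (ENSMUSG00000060548, chromosome 14, 60963875 to 61046490, minus strand; its upstream windows are printed above), differed between lines far more than between media. It had 23.4 and 26.5 CPM in CTO19 noEGF, against 20.8 and 21.9 in CTO19 EM. It had 100 and 95.4 CPM in apsMC706 noEGF, against 101 and 97.9 in apsMC706 EM, where the media overlapped. In CTO19 it rose by 0.23 on the log2 scale (SE 0.0643, adjusted p = 0.00603), a call lost without noEGF replicate 2 (0.14). In apsMC706 it was -0.03 (SE 0.0517, adjusted p = 0.691), a sign that turned under other scalings. The difference of 0.25 (SE 0.0825, adjusted p = 0.0174) was lost with upper-quartile factors (0.18, adjusted p = 0.0847), a stricter filter (0.16, 0.103), no filter (0.17, 0.0758) and the DESeq2 Wald test (0.20, 0.121). It was also lost without CTO19 noEGF replicate 2 (0.08), apsMC706 noEGF replicate 2 or apsMC706 EM replicate 1. Over both lines it was 0.10 (adjusted p = 0.313). CTO19 was lower by -1.97 in noEGF (SE 0.0574, adjusted p = 1.65e-13) and by -2.22 in EM (SE 0.0591, adjusted p = 7.08e-14).

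Cd44, the hyaluronan receptor and a Wnt target of the lower crypt (ENSMUSG00000005087, chromosome 2, 102811141 to 102901665, minus strand), was the member that fell in CTO19 and the member that was higher there than in apsMC706. It had 608 and 519 CPM in CTO19 noEGF, against 891 and 816 in CTO19 EM. It had 403 and 389 CPM in apsMC706 noEGF, against 318 and 319 in apsMC706 EM. The noEGF libraries were thus lower in CTO19 and higher in apsMC706, and the groups did not overlap. Cd44 fell by 0.60 on the log2 scale in CTO19 (SE 0.0707, adjusted p = 4.94e-05) and rose by 0.31 in apsMC706 (SE 0.0712, adjusted p = 0.0035). The difference was -0.91 (SE 0.1, adjusted p = 4.27e-05), and over both lines the value was -0.14 (adjusted p = 0.552). CTO19 was higher by 0.51 in noEGF (SE 0.0709, adjusted p = 0.000109) and by 1.42 in EM (SE 0.0721, adjusted p = 7.3e-08). Gene counts do not separate its splice forms.

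Msi1, an RNA-binding protein of stem and progenitor cells (ENSMUSG00000054256, chromosome 5, 115429599 to 115455698, plus strand), was scarce and was higher without EGF in both lines. It had 29 and 48 counts in CTO19 noEGF, against 5 and 1 in CTO19 EM. It had 36 and 23 counts in apsMC706 noEGF, against 0 and 1 in apsMC706 EM. Every noEGF library lay above every EM library, although the highest level was 1.19 CPM. The ratio of summed counts was 11.6 after scaling in CTO19 (95% counting interval 5.1 to 32.7) and 59.0 in apsMC706, where 59 counts stood against 1 (10.2 to 2369). Msi1 passed the filter on low counts through the noEGF libraries alone, where it is high, so its call in edgeR's test had its direction fixed by the filter and its adjusted p is not given as support. The difference between the responses (-2.08, SE 1.41, adjusted p = 0.231) and the difference between the lines in noEGF (0.32, SE 0.342, adjusted p = 0.394) did not pass. In EM the difference between lines (2.41, SE 1.37) had an adjusted p of 0.13.

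**Figure D4:**
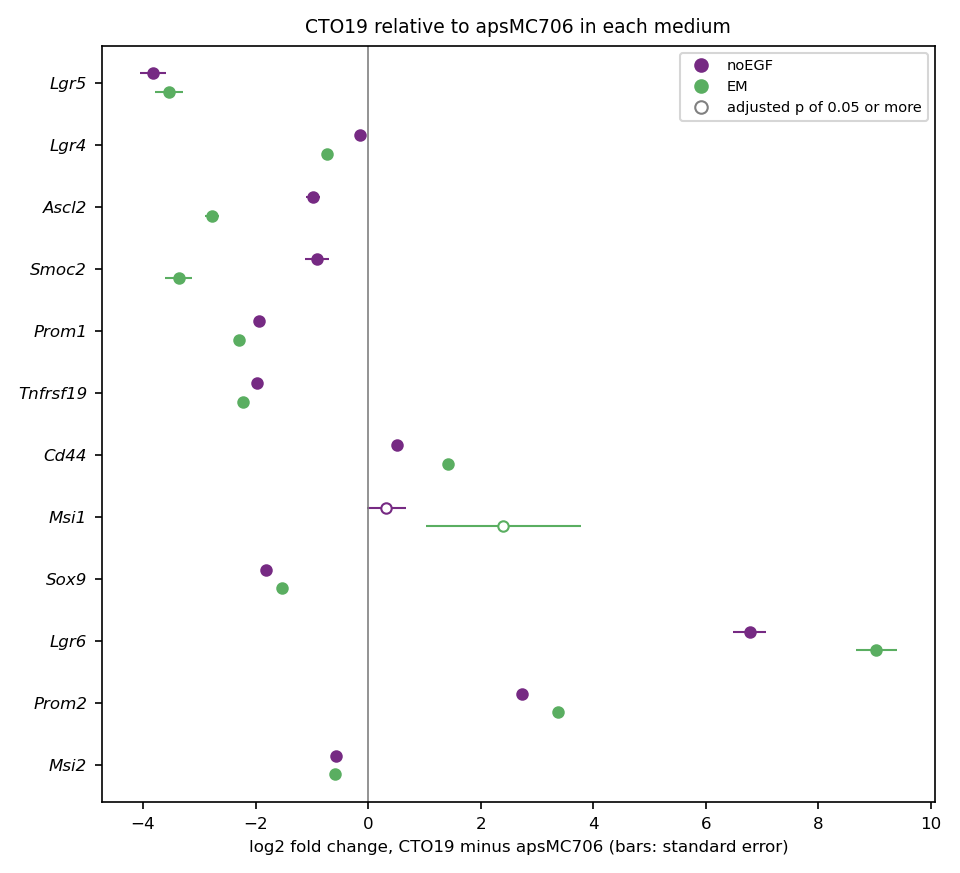
Log2 fold change of CTO19 relative to apsMC706 (horizontal axis; bars are standard errors) in noEGF and in EM for the 9 tested members and 3 paralogs; filled points had an adjusted p under 0.05. Lgr5 lies near -3.82 and -3.54, Cd44 to the right of 0, and the paralogs Lgr6 and Prom2 far to the right.

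Among the paralogs of the members 6 of 12 were tested. Msi2, the broadly expressed relative of Msi1, had 82.4 and 91.8 CPM in CTO19 noEGF and 54.2 and 58.1 in CTO19 EM, and 132 and 127 in apsMC706 noEGF and 84.0 and 84.5 in apsMC706 EM. It rose by 0.63 in CTO19 (SE 0.0548, adjusted p = 1.06e-07) and by 0.62 in apsMC706 (SE 0.0528, adjusted p = 6.6e-08). Prom2 rose by 0.27 in CTO19 (SE 0.0528, adjusted p = 0.00038) and by 0.91 in apsMC706 (SE 0.0766, adjusted p = 5.74e-08). Its level ran opposite to Prom1 between lines, at 114 and 126 CPM in CTO19 noEGF and 98.5 and 101 in CTO19 EM, against 19.0 and 17.2 in apsMC706 noEGF and 9.74 and 9.48 in apsMC706 EM. Over both lines 2 of the 6 tested paralogs, Msi2 and Prom2, were called higher and 0 lower, against 25.5% and 23.3% of all genes. In CTO19 a further gene, Olfm2, rose (1.42, SE 0.327, adjusted p = 0.00141), at the low level of 0.915 and 1.14 CPM in noEGF against 0.318 and 0.45 in EM. CTO19 was lower than apsMC706 for Msi2 and higher for Prom2 in both media. Olfm2, Edar and Eda2r passed the filter on low counts through CTO19 alone, which fixed their direction between lines, so no count of paralogs is read from that comparison.

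The genes whose pattern over the 4 group means was nearest to Lgr5, by root mean square distance of centred log2 CPM among 10117 genes, were Tmem45b (0.223), Sptb (0.257) and Gm47283 (0.289). Tmem45b, a transmembrane protein, had 7.05 and 6.58 CPM in CTO19 noEGF, 3.16 and 3.40 in CTO19 EM, 84.7 and 92.1 in apsMC706 noEGF, and 41.6 and 36.8 in apsMC706 EM. The nearest to Ascl2 were Ppp1r1b (0.0675), Bicdl1 (0.115) and Aldh7a1 (0.216). Ppp1r1b, the phosphatase inhibitor DARPP-32, had 66.7 and 86.2 CPM in CTO19 noEGF, 47.2 and 55.0 in CTO19 EM, 166 and 177 in apsMC706 noEGF, and 348 and 344 in apsMC706 EM. Both Ppp1r1b and Ascl2 were thus higher without EGF in CTO19 and lower in apsMC706. Likeness over 4 groups is a description, and Olfm4 was too low for it.

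A list of 24 other genes of the crypt base stem cell signature was described beside the members. Over both lines 17 of the 24 were called higher and 2 lower in noEGF, against 25.5% and 23.3% of all genes, with a median log2 fold change of 0.65 against 0.03 over all genes. In CTO19 the counts were 16 and 3 (34.7% and 33.3% of all genes), with a median of 0.80 (0.69 with Gkn3, which had no count in CTO19 EM, set to the floor of 3 counts per library), and in apsMC706 15 and 3 (34.1% and 33.1%), with a median of 0.44. Ephb3, an ephrin receptor that helps to position cells along the crypt, rose by 0.70 in CTO19 (SE 0.0438, adjusted p = 3.39e-09) and by 1.01 in apsMC706 (SE 0.045, adjusted p = 5.88e-11). Its relative Ephb2 fell over both lines by 0.24 (SE 0.0757, adjusted p = 0.0353). Its mean was 106 CPM in apsMC706 noEGF against 139.9 in apsMC706 EM. In CTO19 it was 68.7 in noEGF against 72.2 in EM, and it was not called there.

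Gkn3, a gastrokine, had 31.1 and 32.1 CPM in apsMC706 noEGF, against 0.45 and 0.735 in apsMC706 EM, and rose there by 5.74 on the log2 scale (SE 0.172, adjusted p = 1.56e-11). In CTO19 it had 0.0269 and 0.174 CPM in noEGF and no count in EM, so no fold is given. Scn2b, a sodium channel subunit, rose by 2.18 in CTO19 (SE 0.477, adjusted p = 0.000937) and by 3.81 in apsMC706 (SE 0.155, adjusted p = 2.2e-11). In CTO19 it was scarce, with 46 counts in noEGF and 9 in EM over the 2 libraries of each group. Rnf43, the ubiquitin ligase that removes Wnt receptors, rose by 1.59 in CTO19 (SE 0.0509, adjusted p = 6.07e-12) and by 0.50 in apsMC706 (SE 0.0484, adjusted p = 3e-07). Like Ascl2, the transcription factor Myb changed in opposite directions, at 0.94 in CTO19 (SE 0.208, adjusted p = 0.00622) and -1.31 in apsMC706 (SE 0.182, adjusted p = 0.000588). Lrig1, which restrains receptors of the EGF family, did the reverse, at -0.33 in CTO19 (SE 0.0617, adjusted p = 0.000523) and 0.37 in apsMC706 (SE 0.0593, adjusted p = 0.000151). Cdca7, a nuclear protein, was lower over both lines (-0.42, SE 0.124, adjusted p = 0.0271). Its mean was 76.8 CPM in apsMC706 noEGF against 125 in apsMC706 EM. In CTO19 it was 60.3 in noEGF against 65.8 in EM, and it was not called there. Between lines 14 of the 24 were lower and 4 higher in CTO19 in noEGF, against 34.3% and 45.7% of all genes. In EM they were 18 and 6, against 33.8% and 37.5%. Gkn3 and Aqp4 passed the filter through apsMC706 alone and Vdr through CTO19 alone, which fixed their direction between lines. The 24 genes counted between lines include them.

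**Figure D5:**
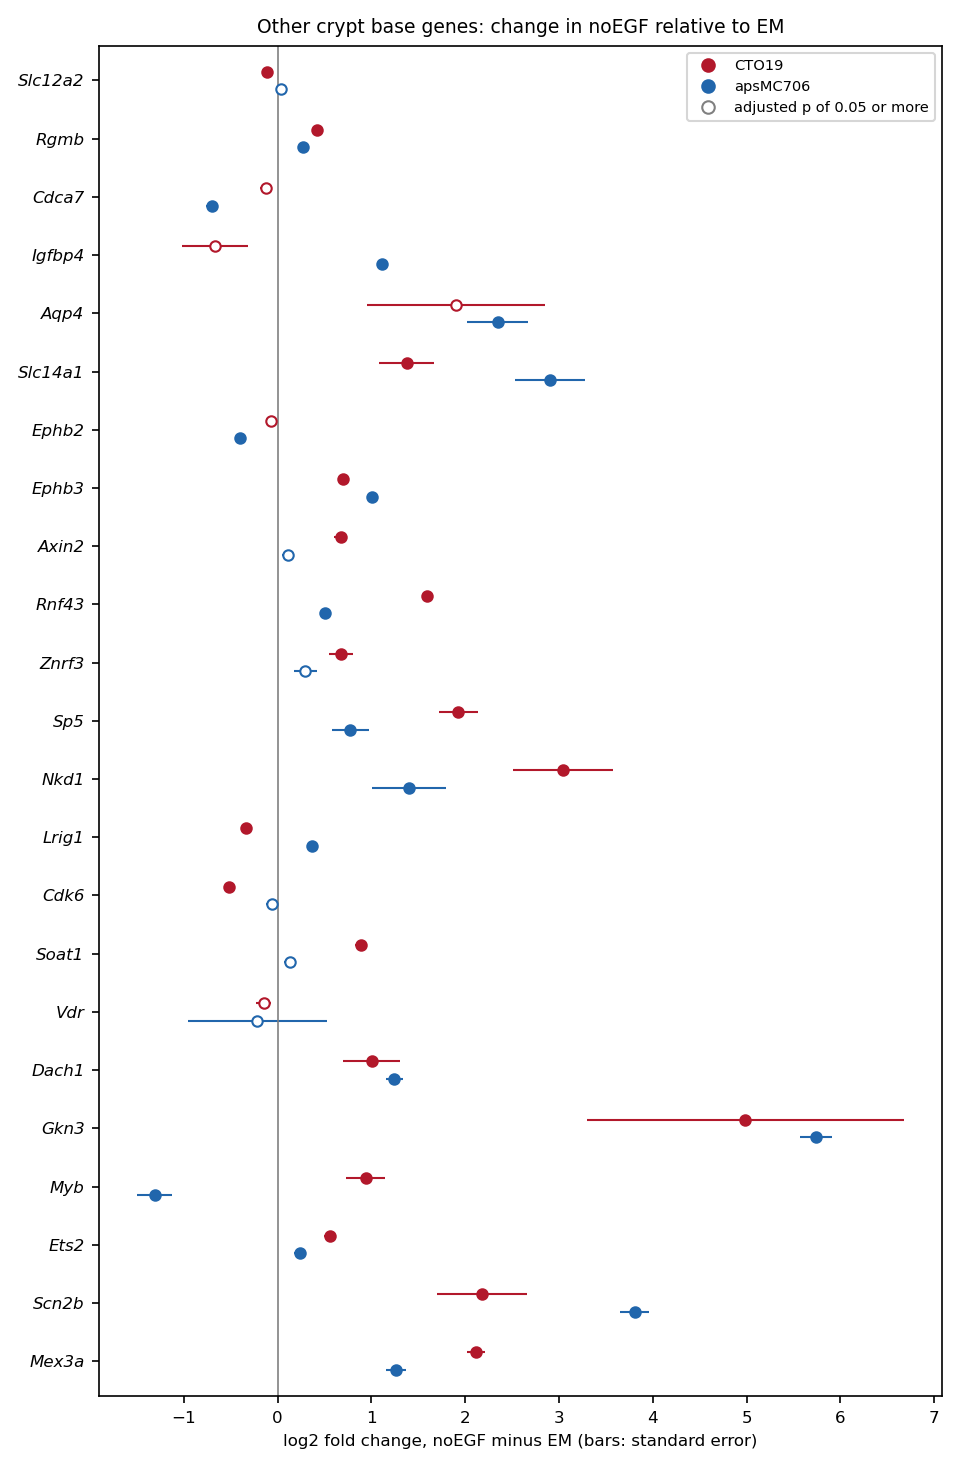
Log2 fold change in noEGF relative to EM (horizontal axis; bars are standard errors) of 23 of the 24 other crypt base genes in CTO19 and apsMC706; filled points had an adjusted p under 0.05. Most points lie to the right of 0, Myb and Lrig1 lie on opposite sides in the lines, and the Gkn3 point of CTO19 rests on a group with no counts in EM.

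Of 6 genes linked to reserve and injury-induced stem cells, 3 were called higher in noEGF over both lines (Tert, Hopx and Clu) and 1 lower (Bmi1), against 25.5% and 23.3% of all genes. Clu, clusterin, had 187 CPM in both CTO19 noEGF libraries against 35.5 and 35.7 in CTO19 EM, and 26.5 and 26.8 in apsMC706 noEGF against 22.6 and 20.2 in apsMC706 EM. It rose by 2.39 in CTO19 (SE 0.0496, adjusted p = 1.9e-13) and by 0.32 in apsMC706 (SE 0.0567, adjusted p = 0.000157). Ly6a, the surface protein Sca-1, had 883 and 759 CPM in CTO19 noEGF against 1076 and 1153 in CTO19 EM, and 646 and 626 in apsMC706 noEGF against 146 and 151 in apsMC706 EM. It fell by 0.44 in CTO19 (SE 0.0656, adjusted p = 0.000175) and rose by 2.10 in apsMC706 (SE 0.0693, adjusted p = 1.14e-09). The summed level of the list was 3052 to 3703 CPM in CTO19 noEGF and 3235 to 3307 in CTO19 EM, against 1095 to 1116 in apsMC706 noEGF and 660.3 to 664 in apsMC706 EM.

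Among 13 R-spondin and Wnt pathway genes 9 were tested, and the ligands Rspo1, Rspo2, Rspo3 and Rspo4 were at 0 or below the limit of detection in every library. Over both lines Fzd7, Lef1 and Ctnnb1 were called higher and Tcf7 lower, against 25.5% and 23.3% of all genes. Fzd7, a Wnt receptor, rose by 0.44 in CTO19 (SE 0.0592, adjusted p = 1.23e-05) and by 0.51 in apsMC706 (SE 0.0442, adjusted p = 9.3e-08). Tcf7, a partner of beta-catenin on DNA, fell by 0.29 in CTO19 (SE 0.0833, adjusted p = 0.0112) and by 0.53 in apsMC706 (SE 0.0723, adjusted p = 7.37e-05). Tcf7l2 rose in CTO19 by 0.85 (SE 0.0872, adjusted p = 1.55e-06) and was -0.05 in apsMC706 (adjusted p = 0.592). Lef1 rose by 0.51 in CTO19 (SE 0.141, adjusted p = 0.00523) and by 2.10 in apsMC706 (SE 0.363, adjusted p = 0.000112), where its level was under 1 CPM. All 6 genes of cycling cells were called lower in noEGF in both lines (33.3% of all genes in CTO19 and 33.1% in apsMC706), with a median of -0.73 in CTO19 and -1.34 in apsMC706. Ccnb1, the cyclin of mitosis, had 121 and 110 CPM in CTO19 noEGF against 214 and 213 in CTO19 EM, and 97.7 and 99.8 in apsMC706 noEGF against 288 and 293 in apsMC706 EM.

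Markers of mature and of non-epithelial cells moved beside the members, and their part in the members' results was not tested. Paneth and deep crypt secretory markers (9 genes, 4 tested) summed to 84.5 to 106 CPM in CTO19 noEGF and 18.7 to 21.9 in CTO19 EM, and to 1069.5 to 1129 in apsMC706 noEGF and 96.6 to 104 in apsMC706 EM. The 4 tested genes (Mmp7, Itln1, Pla2g2a and Reg4) were called higher over both lines and in apsMC706, and in CTO19 only Mmp7 was. Of all genes, 25.5% were called higher over both lines, 34.1% in apsMC706 and 34.7% in CTO19. The defining Lyz1, Defa17 and Defa24 had at most 0.106 CPM in any library. Mmp7, the protease that matures Paneth cell defensins, rose by 2.27 in CTO19 (SE 0.152, adjusted p = 6.09e-05) and by 4.04 in apsMC706 (SE 0.144, adjusted p = 3.15e-06). Goblet markers (7 genes, Muc2 not analysed here) summed to 182 to 221 CPM in CTO19 noEGF and 31.6 to 35.8 in CTO19 EM, and to 196 to 205 in apsMC706 noEGF and 83.6 to 89.6 in apsMC706 EM. Of these 4 were called higher over both lines and 1, Atoh1, the factor that commits cells to the secretory fate, lower, against 25.5% and 23.3% of all genes. Atoh1 passed the filter through apsMC706 EM alone.

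Atoh1 had 0.273 and 0.132 CPM in apsMC706 noEGF, against 3.57 and 3.68 in apsMC706 EM, and was below the limit of detection in CTO19. Colonocyte markers (9 genes) summed to 1.88 to 1.99 CPM in CTO19 noEGF and 1.48 to 1.85 in CTO19 EM, and to 4.58 to 5.52 in apsMC706 noEGF and 1.72 to 1.93 in apsMC706 EM. Enteroendocrine markers (7 genes) stayed at or under 0.296 CPM in CTO19, and in apsMC706 summed to 25.8 to 27.3 in noEGF and 83.8 to 85.7 in EM, nearly all of it Insm1. Tuft cell markers (6 genes) summed to 10.3 to 11.9 CPM in CTO19 noEGF and 14.9 to 15.2 in CTO19 EM, and to 21.2 to 21.8 in apsMC706 noEGF and 42.0 to 44.3 in apsMC706 EM. Il25 was at 0 in all libraries.

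Fibroblast markers (8 genes) summed to 14.0 to 14.8 CPM in CTO19 noEGF and 9.26 to 9.72 in CTO19 EM, and to 179 to 181 in apsMC706 noEGF and 174 to 178 in apsMC706 EM. In apsMC706 Vim made up 170.1 to 174 CPM of that, and Lum and Thy1 were at 0. Dcn, a matrix proteoglycan, had 10.3 and 9.49 CPM in CTO19 noEGF, against 0.116 and 0.0843 in CTO19 EM. Immune markers (7 genes) summed to 11.1 to 12.6 CPM in CTO19 noEGF and 5.06 to 5.59 in CTO19 EM, and to 7.87 to 7.99 in apsMC706 noEGF and 1.38 to 1.53 in apsMC706 EM. Tyrobp, a defining immune gene, had no count in any library, Ptprc had at most 0.14 CPM, and Csf1r shares 873 exonic bases with Hmgxb3 on the other strand. Endothelial, glial and muscle markers (8 genes) summed to 3.63 to 6.51 CPM over all 8 libraries, with Des at 0.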

How the data were processed

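The authors deposited raw counts per Ensembl gene for the 8 libraries, with whole numbers in every library. Per the labels' protocols, RNA was isolated on a column, poly(A) RNA was selected, and libraries were made with a kit that does not mark strand, with 8 cycles of amplification. Per the submitters' processing notes, reads were aligned with STAR 2.7.0a to mm10. For the counting program, its strand setting and the annotation, the answer is: not given in the sources used here. Names, positions, exon lengths and overlaps come from GENCODE M21, in which 32680 of 32728 identifiers were found, and 7747 genes had no count.

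The count table was read into edgeR 4.0.16 under R 4.3.3, where filterByExpr kept 16719 genes with 99.971% of counts, and TMM factors scaled the libraries. CPM values use the TMM factors. Tests were two-sided robust quasi-likelihood F-tests, adjusted by the Benjamini-Hochberg method over all tested genes, with a threshold of 0.05. Genes under it are said to be called. The model over both lines was additive in line and medium, with 5 residual degrees of freedom and a coefficient of biological variation of 16.9%. The others used the 4 group means (4 degrees of freedom, 4.27%), so the libraries of all groups share the estimate of spread. Log2 fold changes are noEGF minus EM, or CTO19 minus apsMC706, and SE is their standard error. Replicates of a group differed by more than sampling noise, with a chi-square per degree of freedom of 3.38 to 10.5, so none was taken as a library deposited in duplicate. The models were run on simulated counts with known folds, a preset spread and no difference between the lines. That checks the code and not how well the tests hold for these data.

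The members, the 16 other gene lists and the rule for naming genes were chosen with earlier results of these data known. The rule named all members, up to 3 called genes per direction of smallest p in each list, any gene that a count of 5 or fewer covers, the 3 targeted genes, and the 3 genes nearest to Lgr5, Ascl2 and Olfm4 among tested genes whose log2 CPM averaged 3 or more. Alternatives were DESeq2 1.42.0 size factors and Wald test, upper-quartile factors, 2 other filters, limma 3.58.1 with voom, a model without the line, a replicate block, libraries summed per line and medium, a fit to the 4 compared libraries, and leaving out single libraries. Upstream windows come from RefSeq (GRCm38.p6). Lgr5, Smoc2, Msi1 and Sox9 had no entry. Of the crypt base list, 1 gene is counted but not reported here.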

Additional observations from a re-analysis of the deposited data

Results flagged for a closer look

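The 6 members below responded to the change of medium differently in the lines, by edgeR's test of the difference itself (log2 fold change in CTO19 minus that in apsMC706, adjusted over all genes, of which 56.0% were called). Smoc2 differed by 2.46 (adjusted p = 0.00261), with a response of 2.36 in CTO19 and -0.10 in apsMC706. Ascl2 differed by 1.79 (adjusted p = 6.67e-06), with 0.74 in CTO19 and -1.05 in apsMC706. Lgr4 differed by 0.59 (adjusted p = 7.01e-06), with 0.23 and -0.36, and Cd44 by -0.91 (adjusted p = 4.27e-05), with -0.60 and 0.31, in the same order of lines. Prom1 differed by 0.36 (adjusted p = 3.25e-05) and was higher without EGF in both lines. Tnfrsf19 differed by 0.25 (adjusted p = 0.0174), a call that did not hold with upper-quartile factors, either other filter or the DESeq2 Wald test. It also did not hold without CTO19 noEGF replicate 2 (0.08).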

How the results depend on the processing

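Of the alternatives for single members, 802 kept direction and side of the threshold, 27 lost a call, 15 gained one and 13 changed sign. Over both lines 8157 genes and 4 members were called. With libraries summed per line and medium 0 genes (2809 at an unadjusted p under 0.05) and 0 members were called, and with no line term 1806 genes and 1 member (Msi1); these alternatives use fewer samples or leave the line difference in the spread. Every change of sign concerned a member that was not called. Over both lines these were Lgr4 at 0.01 with the stricter filter, Ascl2 at 0.03 and 0.05 without apsMC706 noEGF replicate 1 and 2 (range -0.46 to 0.05 with 1 library left out), and Cd44 at 0.06 without CTO19 noEGF replicate 2 (range -0.26 to 0.06). In apsMC706 they were Smoc2 at 0.02 (stricter filter) and Tnfrsf19 at 0.03 (DESeq2 size factors and Wald test), 0.05 (upper-quartile factors), 0.04 (no filter), 0.10 (stricter filter) and 0.06 (without either CTO19 noEGF library; range -0.07 to 0.06). Msi1 between lines in noEGF was -0.11 without CTO19 noEGF replicate 2 (range -0.11 to 0.70). The cause was not tested. Smoc2 over both lines was called by the DESeq2 Wald test (1.16, adjusted p = 0.0207). The replicate numbers do not pair libraries: correlations between same-numbered libraries across groups ran from -0.00825 to 0.0485. With a replicate block, 6988 genes were called over both lines, 11415 in CTO19, 11315 in apsMC706 and 9406 for the difference, and the Sox9 difference became called (-0.29, adjusted p = 0.0423), with no other change of call among the members. Other scalings moved levels by 0.975 to 1.05 times. Depth limits Olfm4 and Msi1, whose counts are few.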
